A study of Mus musculus with 13 samples.

Results

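The genes described are 10 receptor chains through which eosinophils sense the cytokines IL-5, IL-3, GM-CSF, IL-33, TSLP, IL-4 and IL-13. They were taken by symbol from the annotation that accompanies each deposited microarray table, and all 10 were found among the 21369 genes of one table and among the 24903 of the other. Where a gene had several probe sets, the brightest over the arrays of that table was used. The cells were eosinophils sorted out of mouse small intestinal lamina propria, on 13 arrays. Of these, 5 arrays held mCherry+ and 5 held mCherry- cells of Clec4a4-KI mCherry mice, in which a knocked-in mCherry marks expression of the inhibitory lectin Clec4a4. The other 3 arrays held 1 sample each of Ahr KO Clec4a4-, WT Clec4a4+ and WT Clec4a4- eosinophils, where Ahr is the gene of AHR, a transcription factor switched on by small aromatic ligands from diet and microbes. The labels give no age, sex, strain or number of animals for any group, and they do not say whether animals were pooled or in which cells Ahr was deleted.

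Receptors of this kind are built from a chain that recognises the ligand and a partner that carries the signal. Il5ra, Il3ra and Csf2ra encode the ligand-binding alpha chains for IL-5, IL-3 and GM-CSF, and Csf2rb encodes the beta chain they share, while the mouse has a second beta chain, Csf2rb2, that serves IL-3 alone. IL-33 binds Il1rl1 (ST2), which pairs with Il1rap, and TSLP binds Crlf2, which pairs with the IL-7 receptor alpha chain. Il4ra pairs with the common gamma chain to form the type I IL-4 receptor, or with Il13ra1 to form the type II receptor that also takes IL-13. IL-5 drives the maturation and survival of eosinophils, GM-CSF and IL-3 prolong their survival, and IL-33, IL-4 and IL-13 belong to type 2 immunity in the intestine.

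All values are log2 intensities, and differences between arrays are differences of log2 values, so 1 unit is a 2-fold change. Levels of different genes come from different probes and were not set against each other. The reporter arrays and the single arrays are of unlike models with a normalization each, and every comparison stays within 1 table. The median of all gene values was 5.36 in the reporter table and 4.81 in the table of single arrays. Clec4a4 averaged 9.18 ± 0.62 in mCherry+ and 7.52 ± 0.62 in mCherry- eosinophils (SD, n = 5 each), higher in 5 of 5 pairs, and on the single arrays it stood at 3.93 in Ahr KO Clec4a4-, 9.14 in WT Clec4a4+ and 5.56 in WT Clec4a4- eosinophils. Ahr read 11.12 on the array labelled Ahr KO, 11.11 on WT Clec4a4+ and 11.08 on WT Clec4a4-. The Ahr probe set therefore did not tell that array apart, and nothing in the files says whether its probes lie inside the deleted part, so the array is called by its label throughout. The eosinophil markers Siglecf and Ccr3 were well above the median on every array (7.41 at the lowest), whereas Epx, the eosinophil peroxidase, stayed below the reporter median on all 10 reporter arrays (4.31 to 4.89). The 17 epithelial markers averaged 8.35 and 8.13 on the mCherry+ and mCherry- arrays of replicate number 1, and 10.35 to 11.06 and 10.47 to 11.16 on the other mCherry+ and mCherry- arrays, so the reporter samples carried epithelial RNA in very unequal amounts between replicate numbers. In bulk samples like these, fewer cells of a type and less RNA per cell cannot be told apart.

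Between the reporter subsets, few receptor chains differed by more than the spread between arrays. None of the 10 passed limma's test without a block, where 0.356% of all genes were called (0.145% higher and 0.211% lower). Clec4a4 itself, 3.16-fold higher in mCherry+, did not pass that test either (adjusted p = 0.0803 by limma). It passed with the replicate number as a block (adjusted p = 0.00204 by limma). The chain that stood out was Il13ra1, which was 1.72-fold higher in mCherry+ eosinophils and passed the test once the replicate number was entered as a block (adjusted p = 0.038 by limma, where 1.76% of all genes were called, 1.02% higher and 0.749% lower). Only Il13ra1 had groups that did not overlap, which 1.90% of all genes also showed. Csf2rb2 was lower in mCherry+ eosinophils in 5 of 5 pairs but passed in neither fit, and 11.9% of all genes lay on one side in all 5 pairs (5.98% higher and 5.95% lower). The median difference over the 10 chains was -0.02, beside -0.01 over all genes.

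**Figure D1:**
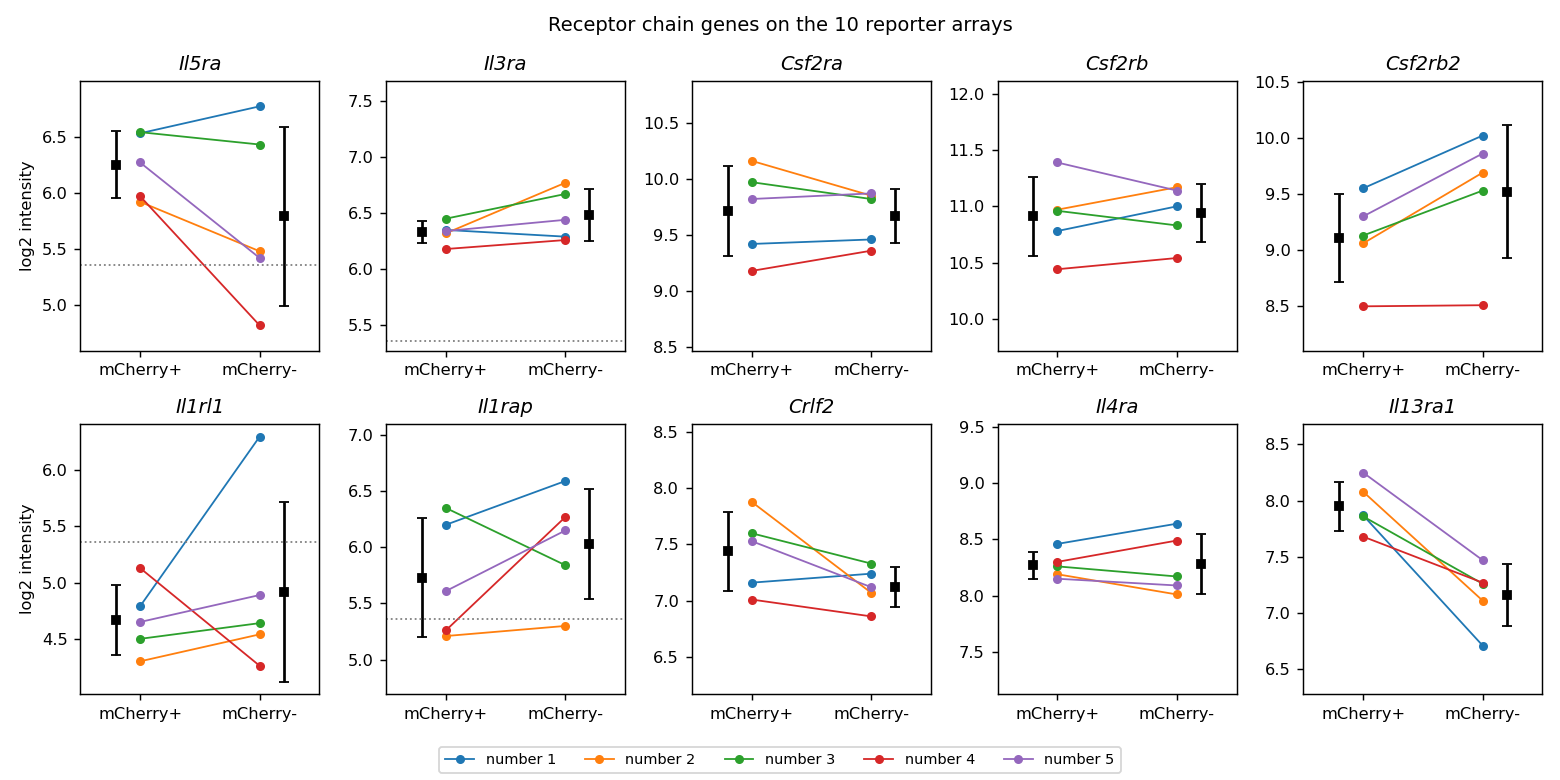
Log2 intensity of each receptor chain gene (y axis, a separate range of at least 2.4 units per panel) in mCherry+ (left) and mCherry- (right) eosinophils, with a line joining the arrays of the same replicate number; black squares are the group mean with its SD (n = 5) and the dotted line, where it falls inside a panel, is the table median of 5.36. Il13ra1 is the panel in which all mCherry+ points, at 7.68 or more, lie above all mCherry- points, at 7.47 or less.

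Il13ra1, the partner of Il4ra in the type II receptor, read 7.87, 8.08, 7.86, 7.68 and 8.25 in mCherry+ samples 1 to 5, against 6.71, 7.11, 7.26, 7.27 and 7.47 in mCherry- samples 1 to 5. Every mCherry+ array thus exceeded every mCherry- array. The log2 difference was 0.78 (SE 0.17, 95% interval 0.40 to 1.17), and the 5 pairs gave 0.41 to 1.16. Limma's adjusted p was 0.108 without the block and 0.0629 to 0.278 over its 18 other settings without the block, so the call rests on the block. With the block, leaving out pair 1, 2, 3 or 5 ended the call (adjusted p up to 0.136 by limma) and leaving out pair 4 kept it (0.0407), while the difference stayed between 0.69 and 0.88. The largest pair difference, 1.16, was that of replicate number 1, whose arrays had the lowest epithelial means, and without that number the mean difference was 0.69. Over the 5 mCherry+ arrays the epithelial mean had a median of 10.36, against 10.59 over the mCherry- arrays. Other lists ran with the subset in 5 of 5 pairs: the mean of the 6 measured erythroid markers was higher in mCherry+ (5.77 to 7.25) than in its mCherry- partners (5.42 to 6.06). Paired differences of the list mean, mCherry+ minus mCherry-, were 0.02 to 0.40 for the 11 stromal and endothelial markers. For the 16 eosinophil markers they were -0.42 to -0.10. By sign, however, 8 of these 16 were higher and 8 lower in mCherry+, with a median difference of 0.04. Among the lower ones, Ear6 spanned 4.73 to 5.25 in mCherry+ and 6.84 to 8.89 in mCherry-. The part of these lists in the Il13ra1 difference was not tested.

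Because Il13ra1 was also the chain that stood higher on the array labelled Ahr KO, and Csf2rb2 one of those that stood lower, the letters upstream of their start sites are shown here, beside those of Il5ra, a receptor typical of eosinophils. The sequences are RefSeq's, build GRCm38.p6, 250 bases up to the start site, read 5′ to 3′ on the gene's own strand. Capitals mark exact matches, on either strand, to GCGTG (the core letters bound by AHR), GATAA (GATA factors, which include the eosinophil regulator GATA1) or TTCNNNGAA (STAT proteins).
Il13ra1, chrX:36111858-36112107, plus strand: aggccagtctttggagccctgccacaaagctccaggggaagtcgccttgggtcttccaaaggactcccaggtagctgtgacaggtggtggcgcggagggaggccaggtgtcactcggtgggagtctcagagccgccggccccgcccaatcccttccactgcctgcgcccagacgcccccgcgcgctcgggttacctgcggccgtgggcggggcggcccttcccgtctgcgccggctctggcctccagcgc
Csf2rb2, chr15:78305722-78305971, minus strand: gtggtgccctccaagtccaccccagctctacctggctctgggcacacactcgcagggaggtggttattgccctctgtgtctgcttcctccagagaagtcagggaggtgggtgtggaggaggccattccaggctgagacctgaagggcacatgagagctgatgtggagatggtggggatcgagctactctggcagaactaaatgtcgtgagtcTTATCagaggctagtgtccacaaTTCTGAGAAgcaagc
Il5ra, chr6:106749038-106749287, minus strand: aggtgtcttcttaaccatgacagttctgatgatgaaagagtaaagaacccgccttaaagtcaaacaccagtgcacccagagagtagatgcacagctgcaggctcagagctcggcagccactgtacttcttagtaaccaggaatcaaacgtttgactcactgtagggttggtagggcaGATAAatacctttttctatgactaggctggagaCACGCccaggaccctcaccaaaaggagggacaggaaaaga

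The Il13ra1 window held none of the 3 motifs, and so shows no capitals. The Csf2rb2 window held 1 GATA core and 1 STAT core and no AHR core, and the Il5ra window held 1 AHR core and 1 GATA core. RefSeq's table gave windows for 9 of the 10 genes, all but Csf2rb, with 2 windows for Il1rl1. Of these 10 windows, 6 held the AHR core (those of Crlf2, Il1rap, Il3ra, Il4ra and Il5ra, and 1 of Il1rl1), against 28.2% of all 32851 windows of the same length. The GATA core was in 4 of the 10 windows and in 22.6% of all, and the STAT core in 1 and in 7.02%. The 10 windows ranged from 37.6% to 74.4% in GC content, which was not matched in this count. The matches describe letters only.

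Il4ra, the chain that binds IL-4 and joins Il13ra1, showed the smallest difference of the 10. It read 8.46, 8.19, 8.26, 8.30 and 8.15 in mCherry+ samples 1 to 5, against 8.64, 8.01, 8.17, 8.49 and 8.09 in mCherry- samples. The groups overlapped throughout, and the log2 difference was -0.01 (SE 0.16, 95% interval -0.35 to 0.33, adjusted p = 0.999 by limma). Without the block this leaves room for a ratio of mCherry+ over mCherry- of 0.784 to 1.26. With the block the 95% interval of Il4ra was -0.27 to 0.25. Its partner in the type I receptor, the common gamma chain Il2rg, averaged 9.68 ± 0.34 in mCherry+ and 9.90 ± 0.39 in mCherry- eosinophils (SD, n = 5 each) and was not called.

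Il5ra was tighter among mCherry+ samples than among mCherry- samples. It read 6.53, 5.92, 6.54, 5.97 and 6.27 in mCherry+ samples 1 to 5, against 6.77, 5.48, 6.43, 4.82 and 5.42 in mCherry- samples. The SD was 0.30 in mCherry+ and 0.80 in mCherry- eosinophils, and the mCherry- arrays held both the highest and the lowest value. The difference was positive in 4 of 5 pairs, 0.46 on average (SE 0.33, 95% interval -0.27 to 1.19), and passed in neither fit (adjusted p = 0.882 by limma, and 0.424 with the block). The lowest value, on array 4 of mCherry-, came from the mCherry- sample with the lowest mean of the eosinophil markers (7.03 over the 15 other than Il5ra itself, against 7.58 to 8.08 on the other 4) and the highest epithelial mean (11.16). Array 4 of mCherry+ had a lower eosinophil mean still (6.85) and an epithelial mean of 11.06, yet its Il5ra read 5.97. Whether these means bear on Il5ra was not tested. Without array 4 of mCherry- the difference of Il5ra was 0.22, and without array 1 of mCherry- it was 0.71.

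Il3ra varied little. It read 6.35, 6.32, 6.45, 6.18 and 6.34 in mCherry+ samples 1 to 5, against 6.29, 6.77, 6.67, 6.26 and 6.44 in mCherry- samples. Values of 6.67 and 6.77 occurred only in mCherry-, but the groups otherwise overlapped, and the difference of -0.15 (SE 0.14, 95% interval -0.46 to 0.15) did not pass (adjusted p = 0.937 by limma). Without array 2 of mCherry- it was -0.08. Csf2ra, the GM-CSF binding chain, read 9.42, 10.16, 9.97, 9.18 and 9.82 in mCherry+ samples 1 to 5, against 9.46, 9.85, 9.82, 9.36 and 9.87 in mCherry- samples. Numbers 1 and 4 gave the 4 lowest values whichever the subset, and the subsets differed by 0.04 (SE 0.20, 95% interval -0.40 to 0.48, adjusted p = 0.995 by limma).

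The shared beta chain Csf2rb read 10.78, 10.97, 10.96, 10.44 and 11.39 in mCherry+ samples 1 to 5, against 11.00, 11.17, 10.83, 10.54 and 11.14 in mCherry- samples. The groups overlapped and both arrays of number 4 were lowest. The difference was -0.03 (SE 0.18, 95% interval -0.43 to 0.37, adjusted p = 0.997 by limma). Csf2rb2, the beta chain for IL-3, read 9.55, 9.06, 9.13, 8.50 and 9.30 in mCherry+ samples 1 to 5, against 10.02, 9.69, 9.53, 8.51 and 9.86 in mCherry- samples. Each mCherry+ sample was below its partner, by 0.40 to 0.63 in 4 pairs and by only 0.01 in number 4, while the groups as such overlapped. The mean difference was -0.41, and without the block it had an SE of 0.28, a 95% interval of -1.04 to 0.21 and an adjusted p of 0.868 by limma. With the block the SE was 0.11, the 95% interval -0.67 to -0.16 and the adjusted p 0.149 by limma, so the interval lay below 0 but the gene was not called. Leaving out array 4 of mCherry- gave a mean difference of -0.67, and leaving out array 4 of mCherry+ gave -0.26. Csf2rb and Csf2rb2 are closely related copies and direct neighbours on chromosome 15, so probes of either may read RNA of both, and how the 2 genes divide the signal is uncertain.

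**Figure D2:**
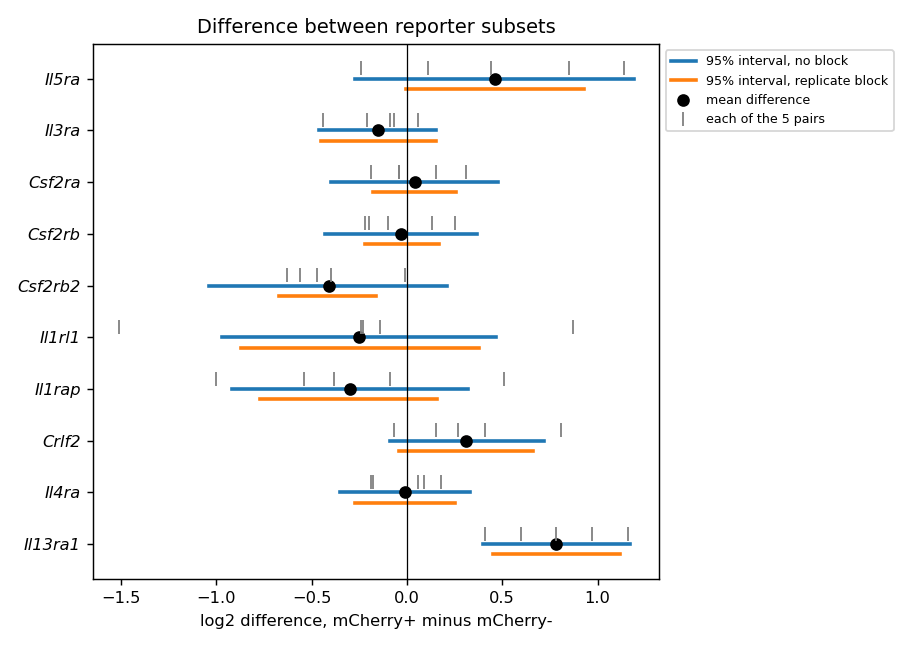
Log2 difference of mCherry+ minus mCherry- (x axis) for each receptor chain (y axis), with grey ticks for the 5 pairs, a black point for the mean and bars for limma's 95% interval without the block (blue, upper) and with the replicate block (orange, lower). Il13ra1 lies to the right of 0 in both fits, at 0.40 to 1.17 without the block, and Csf2rb2 lies to the left of 0 only with the block.

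The IL-33 receptor was weakly detected. Il1rl1, which binds IL-33, read 4.79, 4.30, 4.50, 5.13 and 4.65 in mCherry+ samples 1 to 5, against 6.30, 4.54, 4.64, 4.26 and 4.89 in mCherry- samples. Only array 1 of mCherry- exceeded the table median, and the other 9 values lay under it. The difference was -0.25 (SE 0.33, 95% interval -0.97 to 0.47, adjusted p = 0.966 by limma) and turned to 0.09 without array 1 of mCherry-. ILC2 and mast cells carry Il1rl1 as well. On array 1 of mCherry- the 12 mast cell and basophil markers averaged 4.70. They averaged 4.46 to 4.78 on the other 4 mCherry- arrays and 4.45 to 4.87 on the mCherry+ arrays. The 12 measured ILC2 and T cell markers averaged 6.55 on array 1 of mCherry-, 5.63 to 6.45 on those 4 and 5.91 to 6.52 on mCherry+ arrays. Arrays 1 and 4 of mCherry+, where the latter list averaged 6.49 and 6.52, had Il1rl1 values of 4.79 and 5.13. Of the mast cell and basophil markers, 8 of 12 were below the table median on every reporter array, Cpa3, Fcer1a and Ms4a2 among them, and Tpsb2 and Mcpt1 passed it on some. Kit (5.56 to 6.84) and Hdc (10.06 to 11.30) were above it on all 10. The part of other cells in the Il1rl1 value was not tested.

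Il1rap, the signalling partner in the IL-33 and IL-1 receptors, read 6.20, 5.21, 6.35, 5.26 and 5.61 in mCherry+ samples 1 to 5, against 6.59, 5.30, 5.84, 6.27 and 6.15 in mCherry- samples. The groups overlapped widely, mCherry+ was higher in 1 of 5 pairs, and the mean difference was -0.30 (SE 0.28, 95% interval -0.92 to 0.32, adjusted p = 0.942 by limma). It was -0.48 without array 2 of mCherry- and -0.16 without array 1 of mCherry-. Crlf2, the TSLP receptor, read 7.16, 7.88, 7.60, 7.01 and 7.53 in mCherry+ samples 1 to 5, against 7.24, 7.07, 7.33, 6.86 and 7.12 in mCherry- samples. It was higher in mCherry+ in 4 of 5 pairs, 0.31 on average (SE 0.19, 95% interval -0.09 to 0.72), without passing the test (adjusted p = 0.821 by limma, and 0.496 with the block). Without array 2 of mCherry+ the difference was 0.20. Il7r, the chain that joins Crlf2, averaged 4.58 ± 0.96 in mCherry+ and 4.83 ± 0.68 in mCherry- eosinophils (SD, n = 5 each), below the table median.

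The single arrays asked the same question in cells sorted by surface Clec4a4, and asked how Clec4a4- cells of the mouse labelled Ahr KO compare with wild type. Each group is a lone array, so these differences have no replicate check and no test, and any pair of the 3 comparisons has an array in common. A gene was counted as different at 2-fold or more, with values under the table median of 4.81 set to that median, so that a difference from such a value is a bound. Between the WT arrays 0 of the 10 chains were 2-fold higher in Clec4a4+ and 1 was lower, Il1rl1, where 1.43% of all genes were apart (0.518% higher and 0.916% lower), or 2.73% of the genes whose higher value reached the median. On the array labelled Ahr KO 4 of 10 were 2-fold or more apart from WT Clec4a4-, 1 higher and 3 lower, where 1.18% of all genes (0.498% higher and 0.679% lower) and 2.25% of those reaching the median were. Against WT Clec4a4+ the Ahr KO array had 1 higher and 2 lower, where 0.815% of all genes (0.410% higher and 0.406% lower) and 1.56% of those reaching the median were. In both comparisons the lower chains included Csf2rb and Csf2rb2. Probes of either may read RNA of both, so they may not count as separate signals. Il1rl1, lower only against WT Clec4a4-, read 4.82 on the Ahr KO array, close to the median.

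**Figure D3:**
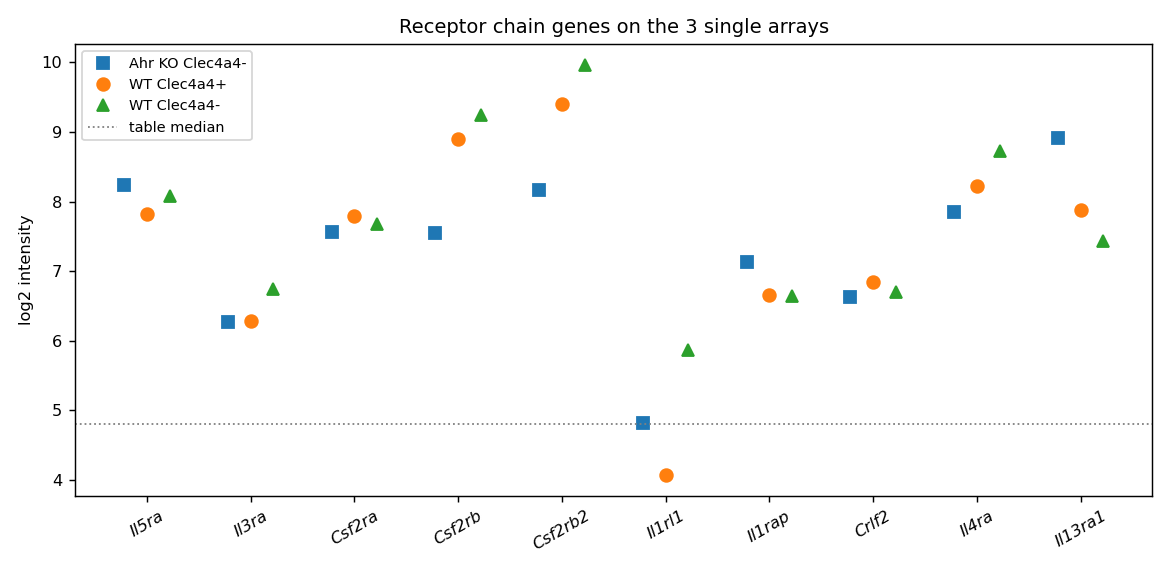
Log2 intensity (y axis) of each receptor chain (x axis) on the single arrays of Ahr KO Clec4a4- (squares, left), WT Clec4a4+ (circles, middle) and WT Clec4a4- (triangles, right) eosinophils, with the table median of 4.81 dotted and no replicate behind any point. Csf2rb and Csf2rb2 are lowest on the Ahr KO array, at 7.55 and 8.17, and Il13ra1 is highest there, at 8.92.

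Both beta chains read low on the Ahr KO array, though probes of either may read RNA of both. Csf2rb stood at 7.55 in Ahr KO Clec4a4-, 8.90 in WT Clec4a4+ and 9.24 in WT Clec4a4- eosinophils, 3.21-fold lower than in WT Clec4a4- and 2.53-fold lower than in WT Clec4a4+. Csf2rb2 stood at 8.17, 9.40 and 9.97 in the same order, 3.5-fold lower than in WT Clec4a4- and 2.36-fold lower than in WT Clec4a4+. Of the alpha chains that use them, none was 2-fold apart: Il5ra read 8.24, 7.82 and 8.08 in Ahr KO Clec4a4-, WT Clec4a4+ and WT Clec4a4-, Il3ra 6.27, 6.28 and 6.74, and Csf2ra 7.57, 7.79 and 7.68. No alpha chain differed by more than 0.47 between any 2 of these arrays.

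Il13ra1 stood at 8.92 in Ahr KO Clec4a4-, 7.88 in WT Clec4a4+ and 7.43 in WT Clec4a4- eosinophils. It was 2.81-fold higher on the Ahr KO array than on WT Clec4a4- and 2.06-fold higher than on WT Clec4a4+, and 1.36-fold higher on WT Clec4a4+ than on WT Clec4a4-, the direction seen in the reporter pairs. Its partner Il4ra went the other way, at 7.85 in Ahr KO Clec4a4-, 8.22 in WT Clec4a4+ and 8.72 in WT Clec4a4-, a difference of -0.87 between Ahr KO and WT Clec4a4-. Crlf2 was level at 6.63, 6.85 and 6.70 in Ahr KO Clec4a4-, WT Clec4a4+ and WT Clec4a4-. Il1rap read 7.13, 6.66 and 6.64 in that order, and its second probe set, with a mean of 3.75, was below the table median.

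Il1rl1 was highest in WT Clec4a4- eosinophils, at 5.87, against 4.82 on the Ahr KO array and 4.07 on WT Clec4a4+. It was at least 2.09-fold lower in WT Clec4a4+ and 2.08-fold lower in Ahr KO Clec4a4- than in WT Clec4a4-, where the Ahr KO value lay only just above the median of 4.81. The 12 mast cell and basophil markers averaged 3.94, 3.92 and 3.89 on the Ahr KO, WT Clec4a4+ and WT Clec4a4- arrays, with 2 of 12 above the median on each. The 12 ILC2 and T cell markers averaged 4.93, 5.07 and 4.80, the 17 epithelial markers 5.27, 5.11 and 5.37, the 12 neutrophil markers 5.97, 5.50 and 5.82, and the 16 eosinophil markers 8.04, 7.82 and 8.11, in the same order. The 5 measured erythroid markers averaged 4.93 and 4.79 on the Ahr KO and WT Clec4a4+ arrays and 3.74 on WT Clec4a4-, a wider gap than in those lists. The macrophage and dendritic cell markers averaged 5.46, 5.57 and 5.34. The part of other cells in the receptor values was not tested.

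Around the receptors, the signalling inhibitor Irak3 read lower in mCherry+ eosinophils. Irak3 (IRAK-M), which restrains signalling by IL-1 family and Toll-like receptors through MyD88, read 7.84, 7.70, 7.99, 7.30 and 7.29 in mCherry+ samples 1 to 5, against 10.38, 9.52, 9.82, 9.36 and 9.10 in mCherry- samples. The groups were far apart, and Irak3 fell by 2.01 in mCherry+ eosinophils (SE 0.24, 4.02-fold, adjusted p = 0.00622 by limma), a call kept with each of the 10 arrays left out. On the single arrays Irak3 stood at 8.99 in Ahr KO Clec4a4- and 8.58 in WT Clec4a4+ eosinophils and was highest in WT Clec4a4-, with differences from it of -1.01 and -1.42. Macrophages and neutrophils also express Irak3. The mean of the 12 neutrophil markers had a median of 5.88 over mCherry+ arrays and 6.76 over mCherry- arrays, with no overlap and 5 of 12 markers above the table median in both groups. It was lower in mCherry+ in 5 of 5 pairs. The median difference over the 12 markers was only -0.14, with 3 higher and 9 lower by sign. S100a8 spanned 4.36 to 6.25 in mCherry+ and 9.77 to 12.27 in mCherry- eosinophils, and S100a9 spanned 4.36 to 6.96 in mCherry+ and 9.55 to 12.38 in mCherry-. The ranges of every other marker in the list overlapped between the subsets, so the gap in the mean came mostly from S100a8 and S100a9. Cxcr2, Csf3r and Retnlg were above the table median on every reporter array, while Ly6g, Mpo, Elane and Ltf were below it on all 10. The 14 macrophage and dendritic cell markers averaged 5.71 to 6.32 over mCherry+ and 5.76 to 6.24 over mCherry- arrays. Single markers moved both ways: by sign 10 were higher and 4 lower in mCherry+, with differences from -2.18 to 1.28. Cd68 spanned 8.40 to 9.41 in mCherry+ and 7.22 to 8.21 in mCherry-. Csf1r spanned 6.06 to 6.44 in mCherry+ and 6.46 to 6.97 in mCherry-, and Cd14 5.43 to 7.04 and 6.45 to 10.25. The part of these 2 lists in the Irak3 difference was not tested. Of the 10 adaptors and kinases downstream of the IL-33 receptor, none was called higher and Irak3 alone was called lower, without or with the block. Over all genes 0.211% were lower without the block and 0.749% with it. The list's median was 0.001. Irak2, chosen after its values were seen, stood at 8.15 on the Ahr KO array, 9.19 on WT Clec4a4+ and 9.23 on WT Clec4a4-.

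**Figure D4:**
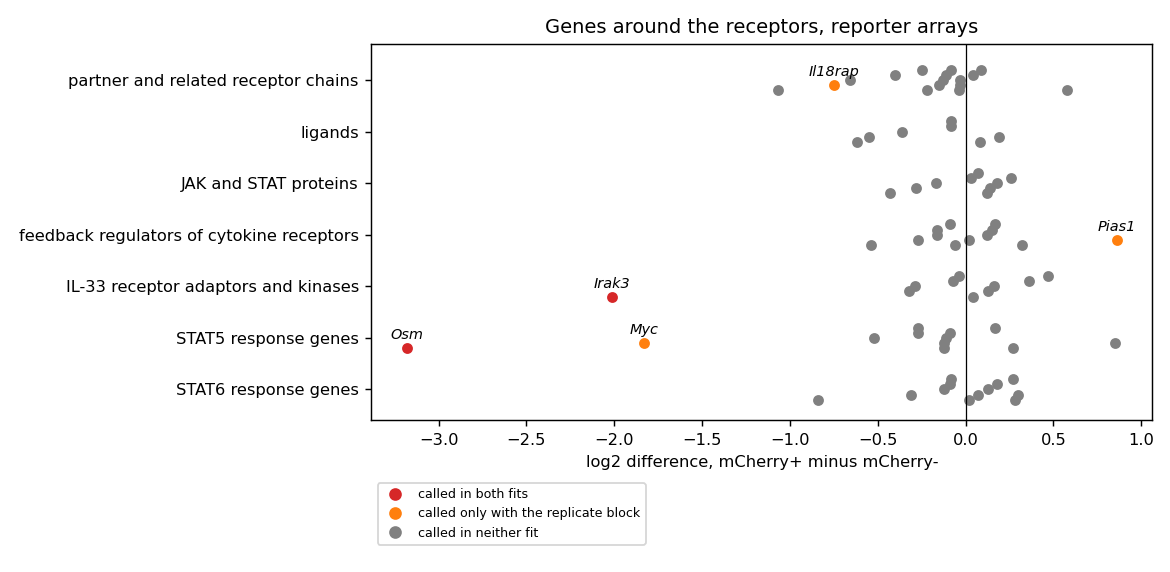
Log2 difference of mCherry+ minus mCherry- (x axis) for every measured gene of 7 lists around the receptors (y axis, points spread vertically for legibility), coloured by limma's call at an adjusted p under 0.05. Irak3 and Osm, at -2.01 and -3.18, are called in both fits, and Myc, Pias1 and Il18rap only with the replicate block.

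Of 16 partner and related receptor chains, none was called without the block and 1 fell with it (0.749% of all genes), with a median of -0.12. That gene was Il18rap, a chain of the IL-18 receptor, at 4.37 ± 0.36 in mCherry+ and 5.12 ± 0.41 in mCherry- eosinophils (SD, n = 5 each), both below the table median, so its difference of -0.75 (adjusted p = 0.289 by limma, and 0.0299 with the block) concerns weak signal. The call with the block was kept in 1 of 5 fits that left out a pair. Csf3r, the G-CSF receptor, and Csf1r, the M-CSF receptor, were chosen after their values were seen. Csf3r spanned 6.25 to 7.23 in mCherry+ and 6.91 to 9.65 in mCherry- eosinophils, a difference of -1.07 that did not pass (adjusted p = 0.637 by limma), and stood at 8.10 on the Ahr KO array, 7.03 on WT Clec4a4+ and 7.63 on WT Clec4a4-. Csf1r differed by -0.40 (adjusted p = 0.475 by limma) and stood at 7.78, 6.87 and 7.88 on those arrays in the same order. The 7 ligands had no call in either fit and a median of -0.08. Il33 averaged 4.70 ± 0.78 in mCherry+ and 5.32 ± 0.97 in mCherry- eosinophils, and Il4 averaged 6.56 ± 0.48 in mCherry+ and 7.11 ± 0.80 in mCherry- eosinophils (SD, n = 5 each), both lower by sign in 5 of 5 pairs. Of all genes 5.95% were lower in all 5 pairs. Il33, Il5, Il3, Csf2 and Tslp averaged below the table median, so the difference of Il33 concerns weak signal.

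The 9 JAK and STAT proteins, which carry the signal of all these receptors except that of IL-33, had no call in either fit and a median of 0.07. The widest differences were those of the kinase Tyk2, at -0.43, and of Stat6, the factor activated by IL-4 and IL-13, at -0.28. Of 12 feedback regulators, none was called without the block and 1 rose with it (1.02% of all genes). That gene, Pias1, a SUMO ligase that restrains cytokine signalling, differed by 0.86 (SE 0.28, adjusted p = 0.388 by limma, and 0.0445 with the block). That call, too, was kept in 1 of 5 fits without a pair. Cish, the STAT5-induced inhibitor, averaged 7.48 ± 0.29 in mCherry+ and 7.75 ± 0.51 in mCherry- eosinophils (SD, n = 5 each) and was not called.

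Of 12 genes that STAT5 can induce, the cytokine Osm alone fell without the block, by 3.18 (SE 0.22, adjusted p = 9.93e-05 by limma), and Myc fell besides with it. Over all genes 0.211% fell without the block and 0.749% with it. Myc read 6.56, 6.20, 6.24, 8.13 and 5.96 in mCherry+ samples 1 to 5, against 8.28, 8.27, 8.62, 8.23 and 8.83 in mCherry- samples. Array 4 of mCherry+ lay close to the mCherry- samples, and the difference of -1.83 (SE 0.36) had an adjusted p of 0.0618 by limma without the block and 0.0393 with it. Without array 4 of mCherry+ the adjusted p was 0.000758 by limma without the block, and with the block Myc was called in 1 of 5 fits that left out a pair. On the single arrays Myc stood at 7.98 in Ahr KO Clec4a4-, 6.02 in WT Clec4a4+ and 7.20 in WT Clec4a4- eosinophils. Bcl2, a survival factor chosen after its values were seen, was not called (0.85, adjusted p = 0.239 by limma, and 0.0947 with the block) and stood at 8.67, 8.19 and 7.06 on those arrays in the same order. Ccnd2, a cyclin chosen likewise, was not called (0.27, adjusted p = 0.912 by limma) and stood at 9.42 on the Ahr KO array, 9.47 on WT Clec4a4+ and 7.97 on WT Clec4a4-. The list's median was -0.12.

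Of 12 genes that STAT6 can induce, none was called in either fit, and the median was 0.04. Retnla averaged 3.36 ± 0.44 in mCherry+ and 4.20 ± 1.16 in mCherry- eosinophils (SD, n = 5 each), both below the table median, and the epithelial cadherin Cdh1 differed by -0.31. Retnla stood at 8.30 on the Ahr KO array, 4.71 on WT Clec4a4+ and 11.15 on WT Clec4a4-, the reverse of the order of Il13ra1 for the WT arrays.

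The genes whose levels ran most like Il5ra over the 10 reporter arrays were Fanca, a DNA repair gene, Oas1b, of the oligoadenylate synthetase family, and Zc3h14, a zinc finger gene, with a Pearson correlation of 0.961, 0.958 and 0.95 over log2 intensities. The 10 arrays form 5 pairs and share differences in epithelial and eosinophil RNA, so these values describe the arrays and carry no test.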

How the data were processed

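RNA was measured on 13 arrays. Per the labels' protocols, RNA of sorted eosinophils was purified with an RNeasy Micro kit and amplified and biotin-labelled with WT-Ovation PicoSL. The values used are log2 intensities as deposited, and RMA is named per the submitters' processing notes, with its version not given in the sources used here. Probe sets were named by Entrez identifier or accession through a RefSeq gene table (GRCm38.p6). The reporter arrays had 35556 probe sets, of which 11106 stayed without a gene. The single arrays had 28360, of which 1160 did.

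mCherry+ and mCherry- arrays were compared by two-sided moderated tests (limma 3.58.1, R 4.3.3), with the prior variance trended on intensity and estimated robustly. A gene was called at a p under 0.05 after Benjamini-Hochberg adjustment across the table. The deviations of same-numbered arrays from their group means correlated at 0.166 to 0.659 in the 5 pairs, so same-numbered arrays were taken as pairs. In 9 of the 10 arrays the best match in the other group had the same number, but array 5 of mCherry- matched number 4 best. The labels leave the meaning of the number unstated. The blocked fit is given beside the unblocked one. The titles call the samples biological replicates, but no label names the mice, so the p-values reflect only how far these samples spread, which may be technical. The number of arrays limits the precision.

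The genes named are the 10 receptor chains and the genes of each list called in either fit (where there were none, the pair that differed most). Clec4a4, Ahr and the 3 genes most correlated with Il5ra among those ranked are also named. Any other gene named, such as Il2rg, Il7r or Cish, was chosen after its values were seen. The members and lists were chosen with earlier results of these data known. Alternatives changed the block, moderation, probe set, features, filter, scaling, source of the values and arrays left out.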

Additional observations from a re-analysis of the deposited data

Results flagged for a closer look

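In groups of 5 arrays, a sample was listed when its gap to the nearest other array exceeded Dixon's 95% limit, which chance passes in about 1 in 20 groups. None of the 10 receptor chains had such a sample. Clec4a4 was low on array 4 of mCherry- (6.42), and Ahr was low on array 4 of mCherry+ (10.32). On that same mCherry+ array Csf3r was low (6.25) and Myc was high (8.13). Il18rap was low on array 3 of mCherry+ (3.75), and Retnla was high on array 1 of mCherry- (6.22). Pias1 was higher in mCherry+ in 5 of 5 pairs, whereas WT Clec4a4+ minus WT Clec4a4- was -0.04, and this difference between the sorts was not tested.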

How the results depend on the processing

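Without the block 0 of the 10 chains were called by limma, where 1 had an unadjusted p under 0.05, and 0 were called with any 1 array left out; with the replicate block 1 was called (Il13ra1), likewise with the block and pair 4 left out, a setting chosen after seeing the data. Over all genes 31 rose and 45 fell, against 217 and 160 with the replicate block, 14 and 20 over all probe sets, 53 and 69 over genes above the median mean, 12 and 28 without both arrays of replicate 1, and 8 to 68 and 21 to 61 with 1 array left out. With the block and pairs 1 to 5 left out in turn, 102, 96, 73, 186 and 83 rose and 68, 87, 82, 134 and 75 fell. Differences near 0 changed sign: Csf2ra (0.04) was -0.005 after renewed quantile normalization, -0.03 with the block without replicate 2, and -0.07 to 0.17 with 1 array left out. Csf2rb (-0.03) was 0.02 without replicate 1 or 2, Il1rl1 (-0.25) was 0.06 and Il4ra (-0.01) was 0.03 without replicate 1, and Il4ra was 0.04 with the block without replicate 4. With 1 array left out these ranged over -0.15 to 0.09, -0.42 to 0.09 and -0.08 to 0.08. Without the bound, Il1rl1 differed by -1.80 between WT Clec4a4+ and WT Clec4a4-. The counts of chains 2-fold apart on the single arrays were the same under all 5 alternatives. The cause of these changes was not tested.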
